A study of Mus musculus with 28 samples.

Results

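The genes described are those of the activin signal: the ligand subunits Inhba, Inhbb and Inha, the secreted binding proteins Fst and Fstl3, the type I receptors Acvr1, Acvr1b and Acvr1c, and the type II receptors Acvr2a and Acvr2b. They were taken by name, and all 10 were found among the 22919 genes of each comparison table. The family was selected on measured values, since the responses of Inhba to both drugs were known when it was picked. Drug responses of the family are therefore given as a description, with the adjusted p-values that the authors attached to them, and nothing is supported with them.

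Nascent RNA was measured by Bru-seq, in which bromouridine taken up by living cells marks the RNA made during the label, and the marked RNA is captured and sequenced. The cultures were cortices and hippocampi pooled from groups of CD1 mouse embryos of embryonic day 18, matched for sex ratio, and held neurons, astrocytes and oligodendrocyte precursor cells. All received a lentivirus on day in vitro 14, which carried either a control hairpin (shCtrl) or a hairpin that targets Rai1 (shRai1), and all were treated for 4 hours on day 17 with 2 mM bromouridine in the last 20 minutes. Water was the vehicle, tetrodotoxin (TTX, 1 µM) blocks sodium channels and silences the network, and bicuculline (BIC, 20 µM) blocks GABA-A receptors and raises network activity. The 6 groups were shCtrl vehicle (n = 2), shCtrl TTX (n = 3), shCtrl BIC (n = 2), shRai1 vehicle (n = 3), shRai1 TTX (n = 3) and shRai1 BIC (n = 3), 16 libraries in all. Each library was labelled as a biological replicate. By these labels the shCtrl vehicle libraries were replicates 1 and 2, and the shCtrl BIC libraries were replicates 2 and 3. A virus acts in all cell types it enters, and in such mixed cultures fewer cells of a type and less RNA per cell cannot be told apart.

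Activins are dimers of inhibin beta subunits, and a beta subunit joined to the inhibin alpha subunit makes an inhibin, which competes for the same receptors. An activin binds a type II receptor, which then activates a type I receptor, and the type I receptor phosphorylates the transcription factors Smad2 and Smad3. Follistatin and its relative FSTL3 bind activins and keep them from their receptors. In forebrain neurons Inhba is known as a gene induced by synaptic activity.

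Promoter sequence is shown for the 3 genes with called responses in at least 3 of the 4 drug comparisons, since their responses ran in opposite directions. Each run is the 250 bases before the RefSeq transcription start, on the gene's strand from 5′ to 3′, in build GRCm38.p6. They lie at chr13:16011601-16011850 on the plus strand for Inhba, chr1:119422249-119422498 on the minus strand for Inhbb and chr9:119401928-119402177 on the plus strand for Acvr2b. Capitals mark a MEF2-type match in Inhba and GC boxes (GGGCGG on either strand) in Inhbb and Acvr2b.
Inhba: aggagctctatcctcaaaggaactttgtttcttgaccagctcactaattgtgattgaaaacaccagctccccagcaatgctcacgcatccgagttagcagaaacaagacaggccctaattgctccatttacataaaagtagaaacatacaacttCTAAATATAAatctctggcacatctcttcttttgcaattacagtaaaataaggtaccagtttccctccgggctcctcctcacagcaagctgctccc
Inhbb: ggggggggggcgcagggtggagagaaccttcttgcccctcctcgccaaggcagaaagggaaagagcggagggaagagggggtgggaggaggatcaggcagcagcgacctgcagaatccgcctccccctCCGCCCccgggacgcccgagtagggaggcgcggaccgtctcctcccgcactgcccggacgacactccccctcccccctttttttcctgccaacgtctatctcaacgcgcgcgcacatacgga
Acvr2b: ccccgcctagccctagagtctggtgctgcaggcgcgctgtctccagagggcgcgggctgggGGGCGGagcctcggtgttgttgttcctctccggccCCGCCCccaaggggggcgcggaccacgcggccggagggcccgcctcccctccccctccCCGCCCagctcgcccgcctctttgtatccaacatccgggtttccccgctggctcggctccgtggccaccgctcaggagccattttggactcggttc

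The promoter of Inhba differed in base composition from the other 2 shown. It was 43.2% G and C with 3 CG dinucleotides, against 68.0% with 21 for Inhbb and 72.8% with 24 for Acvr2b. The median over 32851 RefSeq promoters of this length was 52.4% with 6 CG dinucleotides. The MEF2-type match of Inhba began 96 bases before the start and overlapped a TATAAA match that began 91 bases before it. A MEF2-type match was present in 2.92% of all these promoters and TATAAA in 12.4%. GC boxes were present in 32.7% of promoters, and Inhbb had 1, at 122 bases before the start, while Acvr2b had 3, at 189, 154 and 96 bases. Both strands were also searched for the cyclic AMP response element TGACGTCA (present in 1.55% of promoters), the AP-1 site TGANTCA (6.75%), the CArG box (1.47%) and the Smad palindrome GTCTAGAC (0.167%), and none of the 3 promoters held these letters in this window. RefSeq promoters were matched for 9 of the 10 genes. The start of a gene in RefSeq need not be the one used in these cultures. For Inhba the interval listed with the FPKM values was 12737 bases long, against 27354 for the RefSeq gene.

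The family was present at widely different levels in control cultures. Levels were read as FPKM, reads scaled to the length of the gene and the size of the library, of which the authors deposited 1 pooled value with bounds per condition. In shCtrl vehicle the order was Acvr1b (18.6), Inha (15.2), Acvr2a (13.1), Acvr1 (11.4), Inhbb (6.76), Inhba (6.18), Acvr2b (3.01), Acvr1c (0.851), Fst (0.755) and Fstl3 (0.657 FPKM). The bounds of all 9 pairs of neighbours in that order overlapped. The type I receptor Acvr1b, also called ALK4, is the main activin receptor of its type and stood at the top. The antagonists Fst and Fstl3 stood at the bottom.

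Inhba moved through this order with the drugs. Its pooled level was 6.18 FPKM in shCtrl vehicle (bounds 3.44 to 8.92), 2.28 in shCtrl TTX (0.676 to 3.88) and 82.0 in shCtrl BIC (63.1 to 101). It was thus the 6th of the 10 genes in vehicle, the 7th in TTX and the 1st in BIC. The BIC bounds overlapped neither other condition, and those of vehicle and TTX overlapped each other. In TTX the bounds of 8 of 9 neighbouring pairs overlapped, the exception being Inhbb above Acvr2b. In BIC 7 of 9 overlapped, and the exceptions were Inhba above Acvr1b and Fst above Acvr1c.

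**Figure D1:**
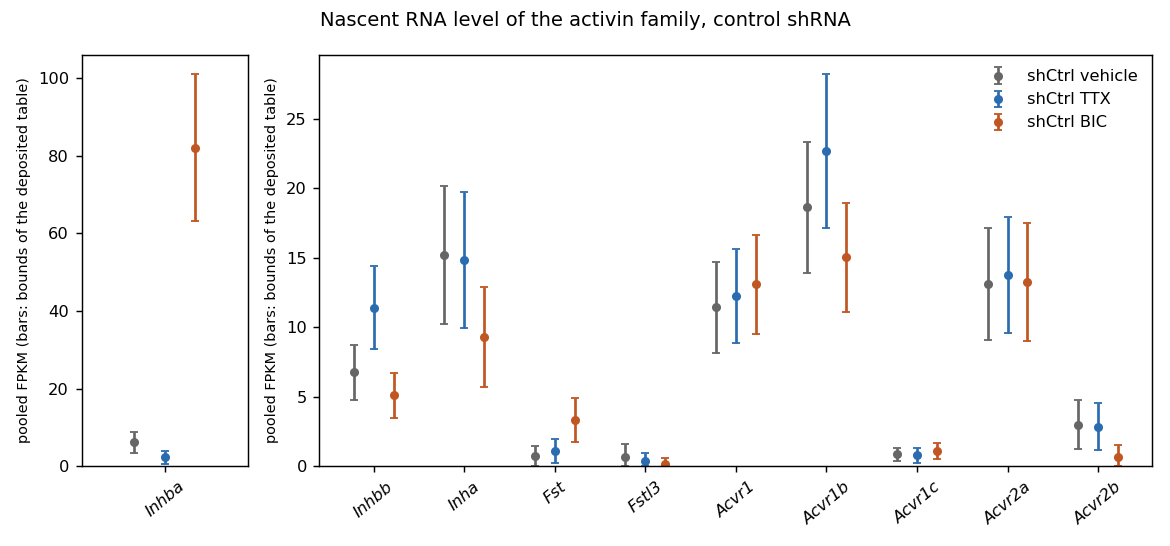
Pooled FPKM of the 10 genes in the 3 shCtrl conditions, with Inhba on its own axis. Points are the deposited values and bars their deposited bounds; Inhba reached 82.0 FPKM in BIC, while none of the other 9 genes was above 22.7 FPKM in any of the 3 conditions.

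The drug comparisons asked which genes follow network activity over 4 hours. Among the ligand subunits, Inhba was lower under silencing and far higher under raised activity, and Inhbb moved the opposite way. Inhba, the beta A subunit of activin A, changed under TTX by -1.25 on the log2 scale in shCtrl in the authors' deposited tables (standard error, SE, 0.24; adjusted p 1.55e-06) and by -0.56 in shRai1 (SE 0.21, adjusted p 0.0346). Under BIC the authors' deposited tables list a rise of 4.13 in shCtrl (SE 0.24, adjusted p 9.70e-64), which is 17.6-fold, and of 4.61 in shRai1 (SE 0.20, adjusted p 2.07e-112), which is 24.4-fold. By size these rises were the 6th and the 4th of 21192 genes tested. The mean of both arms, computed here, was -0.90 (SE 0.16) under TTX and 4.37 (SE 0.16) under BIC.

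Inhbb encodes the beta B subunit of activin B. Its pooled level was 6.76 FPKM in shCtrl vehicle (bounds 4.75 to 8.77), 11.4 with TTX (8.41 to 14.4) and 5.10 in BIC (3.46 to 6.74). It rose under TTX by 0.45 in shCtrl in the authors' deposited tables (SE 0.17, adjusted p 0.0278), and its change of 0.35 in shRai1 (SE 0.14) had an adjusted p of 0.0524. Under BIC the authors' deposited tables give falls, with -0.77 in shCtrl (SE 0.19, adjusted p 0.000391), and -0.97 in shRai1 (SE 0.16, adjusted p 1.11e-08). The 2 beta subunits therefore had opposite signs in all 4 drug comparisons. Within an arm, the change under BIC minus that under TTX was 5.38 for Inhba and -1.23 for Inhbb in shCtrl, and 5.16 and -1.32 in shRai1.

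Inha, the inhibin alpha subunit, was called lower under BIC in both arms and called under TTX in neither. Its pooled level was 15.2 FPKM in shCtrl vehicle (bounds 10.2 to 20.1), 14.8 with TTX (9.92 to 19.7) and 9.31 in BIC (5.72 to 12.9). The authors' deposited tables give log2 changes under TTX of -0.06 in shCtrl and 0.06 in shRai1, neither called. Under BIC the authors' deposited tables give -0.68 in shCtrl (SE 0.20, adjusted p 0.00371) and -0.47 in shRai1 (SE 0.17, adjusted p 0.0133).

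**Figure D2:**
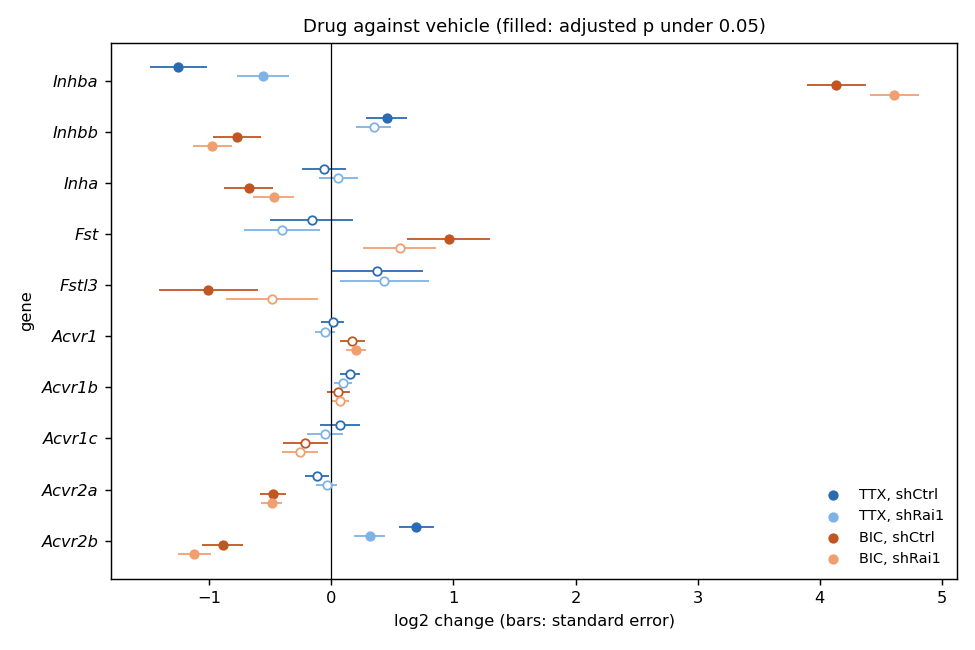
Log2 change of each gene against vehicle in the 4 drug comparisons, from the authors' deposited tables, with bars of 1 SE and filled points where the adjusted p was under 0.05. Inhba stands alone to the right at 4.13 and 4.61 under BIC, while Inhbb and Acvr2b lie right of 0 under TTX and left of it under BIC.

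The antagonists had low levels and wide errors. Fst encodes follistatin, which binds activin almost irreversibly. Its pooled level was 0.755 FPKM in shCtrl vehicle (bounds 0.0496 to 1.46), 1.13 with TTX (0.265 to 1.99) and 3.30 in BIC (1.73 to 4.88). Its mean normalized count over all libraries was 26.1, against a median of 107 over the genes tested. The authors' deposited tables give a rise under BIC of 0.96 in shCtrl (SE 0.34, adjusted p 0.0176) and a change of 0.56 in shRai1 that was not called (SE 0.30, adjusted p 0.122). Its changes under TTX, -0.16 in shCtrl and -0.40 in shRai1, were not called in the authors' deposited tables.

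Fstl3 encodes a shorter relative of follistatin that also binds activin. Its mean normalized count was 12.8, the lowest of the family, and its interval overlaps the listed interval of Prss57. The libraries were stranded, but the strands of the 2 genes were not compared, so whether their reads mix is unknown. Its pooled level was 0.657 FPKM in shCtrl vehicle, 0.352 in TTX and 0.150 in BIC, and the lower bound was 0 in all 3. In the authors' deposited tables it fell under BIC in shCtrl, with a log2 change of -1.01 (SE 0.40, adjusted p 0.0395), and its change in shRai1 was -0.48 (SE 0.38, adjusted p 0.329). The call in shCtrl ended when the log2 changes were centred on the median of genes with a mean count of at least 50 (adjusted p 0.0517). The 2 antagonists had opposite signs under BIC in both arms, but neither was called in shRai1, so nothing is read from these signs. The authors' deposited tables called neither under TTX, where Fstl3 had changes of 0.38 and 0.43.

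In the authors' deposited tables the type I receptors changed by at most 0.25 (rounded) on the log2 scale in either direction under the drugs. Log2 ratios of FPKM to vehicle in shCtrl, with a pseudocount of 0.1, went further for 2 of them. They were 0.28 under TTX and -0.31 under BIC for Acvr1b, and 0.35 under BIC for Acvr1c. Both BIC ratios had the opposite sign to the deposited changes. Acvr1, also called ALK2, a receptor for BMPs as well as activins, had pooled levels of 11.4, 12.3 and 13.1 FPKM in shCtrl vehicle, TTX and BIC, with overlapping bounds. In the authors' deposited tables it rose by 0.20 under BIC in shRai1 (SE 0.081, adjusted p 0.0318), and its change of 0.17 in shCtrl was not called (SE 0.10, adjusted p 0.195). Acvr1 had the highest mean normalized count of the family, 4544, and its change of 0.20 was the smallest called. Acvr1b had pooled levels of 18.6, 22.7 and 15.1 FPKM in the same order. The authors' deposited tables call it in no drug comparison, with changes of 0.15 and 0.10 under TTX and 0.06 and 0.07 under BIC in shCtrl and shRai1. Acvr1c, also called ALK7, a receptor for activin B and Nodal, had pooled levels of 0.851, 0.779 and 1.11 FPKM. The authors' deposited tables do not call it either, with changes of 0.07 and -0.05 under TTX and -0.21 and -0.25 under BIC.

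Both type II receptors, which bind the ligand first, fell under BIC in the deposited comparisons. Acvr2a had log2 changes under BIC of -0.48 in shCtrl (SE 0.11, adjusted p 8.07e-05) and -0.49 in shRai1 (SE 0.086, adjusted p 1.20e-07), as the authors' deposited tables list it. Its FPKM did not follow that fall: the pooled level was 13.1 in shCtrl vehicle (bounds 9.08 to 17.2), 13.8 with TTX (9.58 to 17.9) and 13.2 in BIC (9.02 to 17.5). Under TTX its changes, -0.12 in shCtrl (SE 0.097) and -0.04 in shRai1 (SE 0.085), were not called in the authors' deposited tables. The log2 ratio of BIC to vehicle in FPKM was 0.01 with a pseudocount of 0.1. The interval listed for Acvr2a overlaps that of Orc4, and at 135159 bases it is longer than the RefSeq gene of 89156. The strands of Acvr2a and Orc4 were not compared. Because its FPKM did not follow it, the fall of Acvr2a is uncertain.

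Acvr2b had the opposite sign to Inhba in all 4 drug comparisons, at a smaller size. In the authors' deposited tables it rose under TTX by 0.70 in shCtrl (SE 0.14, adjusted p 1.69e-05) and by 0.31 in shRai1 (SE 0.12, adjusted p 0.0408). Under BIC the authors' deposited tables give -0.89 in shCtrl (SE 0.17, adjusted p 1.75e-06) and -1.12 in shRai1 (SE 0.14, adjusted p 2.98e-15). The pooled level was 3.01 FPKM in shCtrl vehicle (bounds 1.27 to 4.74), 2.85 with TTX (1.16 to 4.54) and 0.690 in BIC (0 to 1.51). The level was thus lower with BIC in both measures, while the rise under TTX was not seen in FPKM, where the log2 ratio to vehicle was -0.07. That rise is uncertain for this reason, and in shRai1 its adjusted p became 0.0556 when all genes with a p-value were counted. The mean of both arms was 0.51 (SE 0.096) under TTX and -1.005 (SE 0.11) under BIC, a 2.01-fold fall.

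Counted over the family, the authors' deposited tables call 3 of 10 genes under TTX in shCtrl (2 higher, 1 lower) and 2 in shRai1 (1 higher, 1 lower). Of all genes with an adjusted p, 26.7% and 30.5% were called there. The authors' deposited tables call 7 of 10 under BIC in shCtrl (2 higher, 5 lower) and 6 in shRai1 (2 higher, 4 lower), where 34.4% and 42.5% of all genes with an adjusted p were called. The median log2 change of the 10 genes under BIC was -0.34 in shCtrl and -0.36 in shRai1, against medians of all genes within 0.01 of 0. Averaged over both arms, 3 were called under TTX (2 higher, 1 lower) and 8 under BIC (3 higher, 5 lower). The background shares of these averages over 18241 genes were 15.5% higher and 17.5% lower under TTX, and 22.4% higher and 23.6% lower under BIC. Since these contrasts were used in picking the family, nothing is read from the counts.

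**Figure D3:**
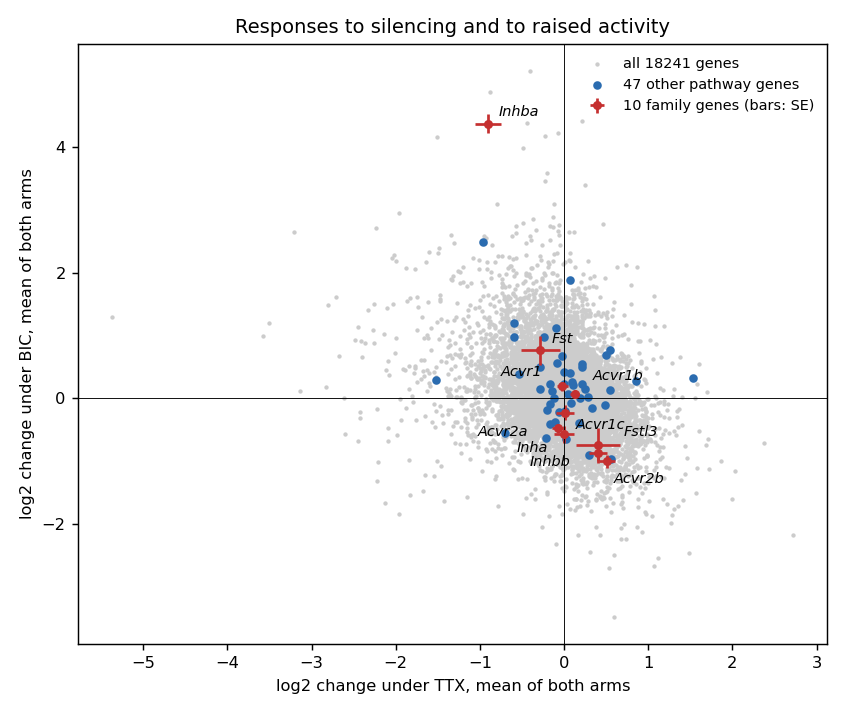
Log2 change under TTX (x axis) and under BIC (y axis), each the mean of both arms, for all 18241 genes (grey), 47 other pathway genes (blue) and the family (red, bars of 1 SE). Both axes share the vehicle libraries; Inhba lies at -0.90 and 4.37, and Acvr2b and Inhbb lie at the lower right.

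The knockdown comparisons asked whether shRai1 altered the family within each treatment. No gene of the family passed the adjusted threshold of 0.05 in any of the 3. The share of all genes with an adjusted p that the authors' deposited tables call was 0.857% in vehicle, 0.0283% with TTX and 0.00944% with BIC. Of the 30 values of the family, 2 had an unadjusted p under 0.05 in the authors' deposited tables. No share of all genes at this unadjusted cut was set beside that count, so nothing is read from it. Both values were in vehicle. Inhba had a log2 change of -0.55 there (SE 0.23, unadjusted p 0.0168, adjusted p 0.305) and Acvr2b one of 0.35 (SE 0.15, unadjusted p 0.0151, adjusted p 0.290) in the authors' deposited table. Inhba had values of 0.15 (SE 0.22) with TTX and -0.07 (SE 0.21) with BIC in the authors' deposited tables. The 95% interval for Inhba in vehicle ran from -0.997 to -0.10 in the authors' deposited table, which does not reach 0. Acvr2b had -0.03 (SE 0.12) with TTX and 0.12 (SE 0.16) with BIC in the authors' deposited tables. For the other ligand subunits the authors' deposited tables give 0.12, 0.01 and -0.08 for Inhbb and -0.11, 0.01 and 0.10 for Inha, in vehicle, TTX and BIC in that order. The antagonists had 0.31, 0.07 and -0.09 (Fst) and -0.24, -0.18 and 0.28 (Fstl3) in the authors' deposited tables, with standard errors of 0.31 to 0.40. Fstl3 was given no adjusted p in vehicle. The remaining receptors Acvr1, Acvr1b, Acvr1c and Acvr2a lay between -0.13 and 0.07 in all 3 of the authors' deposited tables.

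A hairpin acts on mature RNA, so the nascent RNA of Rai1 is no direct check of the knockdown. In the authors' deposited tables Rai1 in shRai1 against shCtrl was 0.16 (SE 0.073, unadjusted p 0.0252, adjusted p 0.357) in vehicle, higher in the arm labelled as knockdown. It was -0.12 (SE 0.064, adjusted p 1.00) in TTX and 0.03 (SE 0.073, adjusted p 1.00) in BIC in the authors' deposited tables. Differences between arms rest on the labels for that reason.

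**Figure D4:**
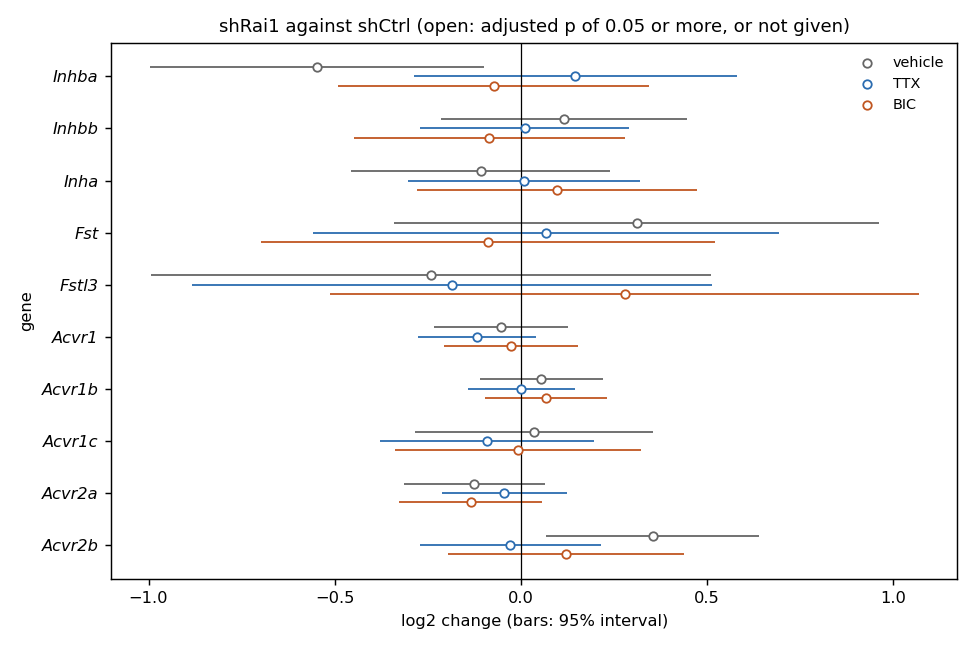
Log2 change of shRai1 against shCtrl for each gene in vehicle, TTX and BIC, from the authors' deposited tables, with 95% intervals. All points are open, as none passed the adjusted threshold; in vehicle the intervals of Inhba and Acvr2b do not reach 0.

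Whether the knockdown altered a drug response was tested by the interaction, in which the shCtrl response is taken from the shRai1 response. It was called for none of the 10 genes under either drug by a Wald test, two-sided and Benjamini-Hochberg adjusted. Over all 18241 genes it was called for 0.943% under TTX and 0.0219% under BIC. At an unadjusted p under 0.05 there were 2 genes, both under TTX. No share of all genes at this unadjusted cut was set beside that count, so nothing is read from it. The TTX response of Inhba differed by 0.69 (SE 0.32, 95% interval 0.07 to 1.32, p 0.0293, adjusted p 0.450). Acvr2b differed by -0.38 (SE 0.19, p 0.0455, adjusted p 0.535). Under BIC the difference for Inhba was 0.47 (SE 0.31, 95% interval -0.14 to 1.09, adjusted p 1.00). All these differences share the vehicle libraries with the knockdown in vehicle. Markers of the oligodendrocyte lineage moved in the same comparisons: 4 of 8 (7 with an adjusted p) were called lower in shRai1 vehicle in the authors' deposited table, where 0.857% of all genes with an adjusted p were called, and 5 of 8 had a called TTX interaction. Within the TTX responses, the authors' deposited tables call 1 of them higher and 4 lower in shCtrl, and 4 higher and 0 lower in shRai1, of 7 with an adjusted p in each, against 26.7% and 30.5% of all genes with an adjusted p. In shCtrl their summed level was 191 FPKM in vehicle, 164 in TTX and 189 in BIC, with none at 0. Their part in the values of Inhba and Acvr2b was not tested.

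The genes whose 4 drug responses lay nearest to those of Inhba were Serpinb2, Ism1, Pdyn, Map3k5 and Ifi202b. The measure was the Euclidean distance over the 4 log2 changes, among the 12333 genes whose mean normalized count reached 50. Serpinb2, a serine protease inhibitor, lay at 0.708, and in the authors' deposited tables changed by -1.18 and -0.57 under TTX and by 4.66 and 5.08 under BIC in shCtrl and shRai1. Ism1 lay at 0.999, Pdyn, the precursor of dynorphin peptides, at 1.02, Map3k5 at 1.08 and Ifi202b at 1.13, against a median of 6.41 over all these genes. For Inhbb the nearest were Oxtr, the oxytocin receptor (0.0627), Pcnt (0.0993), Celf5 (0.116), Ralgps1 (0.130) and Macrod1 (0.138), with a median of 1.40. For Acvr2b they were Spint2, an inhibitor of serine proteases (0.125), Fndc1 (0.147), Sox12 (0.151), Aspdh (0.167) and Fcho1 (0.187), with a median of 1.65. The neighbours of Inhbb and Acvr2b are thus nearer to them than those of Inhba are to Inhba. The median distance over all these genes was larger for Inhba as well, so nothing is read from this difference.

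The other genes of the pathway were read from a list of 47, chosen by textbook role. Averaged over both arms, 21 were called under TTX (9 higher, 12 lower) and 27 under BIC (18 higher, 9 lower), by the same Wald test and adjustment. Over all 18241 genes 15.5% were called higher and 17.5% lower under TTX, and 22.4% higher and 23.6% lower under BIC. Their median log2 change was 0.02 under TTX and 0.21 under BIC, against 0.01 and -0.0032 over all genes. In the authors' deposited tables the counts under TTX were 19 of 41 genes with an adjusted p in shCtrl and 13 of 41 in shRai1, where 26.7% and 30.5% of all genes with an adjusted p were called. Under BIC they were 20 of 42 in shCtrl and 27 of 44 in shRai1, where the authors' deposited tables call 34.4% and 42.5% of all genes with an adjusted p.

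Among related ligands, Bmp2, a bone morphogenetic protein, had the signs of Inhba in the mean of both arms. It had -0.97 (SE 0.19, adjusted p 4.59e-06) under TTX and 2.48 (SE 0.17, adjusted p 1.42e-46) under BIC. Its TTX change in shRai1 alone, -0.60, was not called in the authors' deposited tables (adjusted p 0.0635). Tgfb1 rose by 0.86 under TTX (SE 0.25, adjusted p 0.00281), from a mean normalized count of 17.1. The authors' deposited tables do not call its TTX change in shRai1 alone, 0.73 (adjusted p 0.0954). Bmp7 fell under BIC, with -0.64 (SE 0.11, adjusted p 9.48e-09). All 3 proteases of the list, which cut ligand precursors into mature dimers, rose under BIC, where 22.4% of all genes were called higher. Pcsk6 rose by 1.89 (SE 0.086), Furin by 0.98 (SE 0.072) and Pcsk5 by 0.97 (SE 0.15). Furin also fell under TTX, with -0.59 (SE 0.071, adjusted p 2.03e-15).

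Tgfbr3, or betaglycan, the coreceptor through which inhibins hold type II receptors, rose by 1.54 under TTX (SE 0.063, adjusted p 6.24e-130) and by 0.32 under BIC (SE 0.068). Chrd, the BMP antagonist chordin, rose by 0.56 under TTX (SE 0.15) and changed by -0.96 under BIC (SE 0.17). Tgfbr1, a type I receptor for TGF-beta, fell under both drugs, with -0.71 (SE 0.12) under TTX and -0.55 (SE 0.13) under BIC. All 3 receptor adaptors rose under BIC in the average over arms, by 0.22 (Magi2, SE 0.079), 0.42 (Synj2bp, SE 0.054) and 0.67 (Zfyve9, SE 0.064), again against 22.4% of all genes called higher. Magi2 was called in neither arm alone in the authors' deposited tables (adjusted p 0.152 in shCtrl and 0.0605 in shRai1). Ligands, coreceptors and antagonists, other receptors and regulators went both ways under BIC. Of the ligands 3 of 10 were called higher and 2 lower, and of the coreceptors and antagonists 2 of 8 higher and 2 lower. Among other receptors 2 of 6 were called higher and 1 lower, and among regulators 3 of 7 higher and 2 lower. Of the 2 feedback targets in the list, 1 was called higher and 0 lower. Over all genes 22.4% were called higher and 23.6% lower.

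The Smads downstream of activin did not move together. Smad3 rose by 0.29 under TTX (SE 0.059) and changed by -0.90 under BIC (SE 0.065, adjusted p 3.99e-42). Smad4, the shared partner, fell under both, with -0.21 (SE 0.058) and -0.64 (SE 0.062). Smad2 had -0.17 under TTX (SE 0.057, adjusted p 0.0107) and -0.09 under BIC, which was not called (SE 0.062, adjusted p 0.268). Under TTX the authors' deposited tables call Smad2 and Smad3 in shCtrl only, and Smad4 in shRai1 only. Smad7, the inhibitory Smad that signalling through Smad3 induces, changed by -0.59 under TTX (SE 0.086) and rose by 1.20 under BIC (SE 0.090, adjusted p 3.92e-39).

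**Figure D5:**
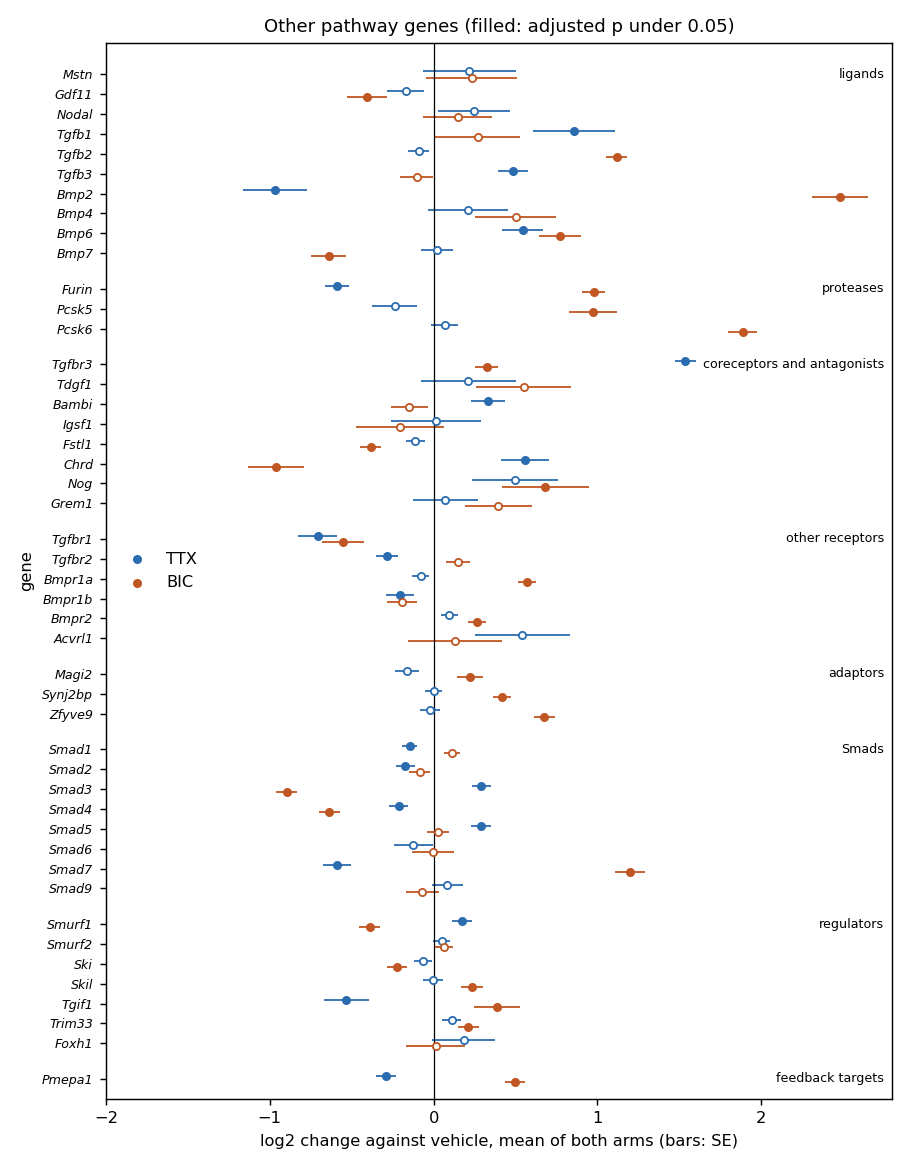
Log2 change against vehicle, mean of both arms, for the other pathway genes in groups by role, 1 gene of the list left out, with bars of 1 SE and filled points where the adjusted p was under 0.05. Under BIC all 3 proteases and all 3 adaptors lie right of 0, and Bmp2 reaches 2.48.

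For shRai1 against shCtrl the authors' deposited tables call 1 of the 38 pathway genes with an adjusted p in vehicle, against 0.857% of all genes with one. In TTX and BIC they call none of the 47, against 0.0283% and 0.00944%. The gene called in vehicle was Bmp7, named after its value was seen, with -0.52 (SE 0.14, adjusted p 0.0428) in the authors' deposited table, and the call ended when the adjustment covered all genes with a p-value. Bmp7 fell in the same comparison as 4 of the 8 oligodendrocyte-lineage markers, whose part was not tested. The TTX interaction was called for 1 of the 47, against 0.943% of all genes: Bmpr1b, a type I BMP receptor, likewise named after its value was seen. The interaction under BIC was called for none of the 47, against 0.0219% of all genes.

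The labelled cell types were checked by their markers. In shCtrl vehicle all 10 neuronal, all 8 astrocyte and all 8 oligodendrocyte-lineage markers had at least 0.5 FPKM, as did 5 of 6 microglial and 2 of 8 fibroblast and vascular markers. The summed neuronal markers were 657 FPKM in shCtrl vehicle, 573 in TTX and 922 in BIC. Averaged over arms, 6 of the 10 neuronal markers were called higher and 3 lower under BIC, where 22.4% of all genes were called higher and 23.6% lower. Under TTX 1 neuronal marker was called higher and 4 lower, and 3 of 8 astrocyte markers were called lower, against 15.5% higher and 17.5% lower over all genes. Under BIC 1 astrocyte marker (Sox9) was called higher and 1 (Aqp4) lower. Of the 8 oligodendrocyte-lineage markers, 1 (Mbp) was called higher and 1 (Olig2) lower under TTX, and 2 (Olig1 and Mbp) lower under BIC. Of the microglial markers, 2 of the 5 tested were called higher under BIC, and the list summed to 21.6 FPKM in shCtrl vehicle, 22.7 in TTX and 31.3 in BIC. Fibroblast and vascular markers summed to 3.22, 4.59 and 3.79 FPKM. Of the 7 tested, 1 (Pecam1) was called higher under TTX and 2 (Dcn and Pdgfrb) lower under BIC. The part of cell type markers in the family's responses was not tested.

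The intervals of the FPKM table, in build mm9 and 1-based, place the family on 6 chromosomes. Inhba lies at chr13:16106308-16119044, Fst at chr13:115242470-115248938, Inhbb at chr1:121312042-121318825 and Inha at chr1:75503652-75506929. Fstl3 lies at chr10:79240019-79251730, Acvr1b at chr15:101004556-101043032 and Acvr2b at chr9:119311619-119342624. Acvr2a lies at chr2:48669629-48804787, and Acvr1c (chr2:58119864-58210169) and Acvr1 (chr2:58298849-58419239) are 88679 bases apart. The intervals of Inhba (12737 bases) and Acvr2b (31006 bases) are shorter than the RefSeq genes of 27354 and 40566 bases, and those of Acvr2a (135159 bases) and Fstl3 (11712 bases) are longer than the RefSeq genes of 89156 and 5357 bases. The intervals of Acvr1b and Acvr1c also hold the listed genes Mir6962 and Gm13544.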

How the data were processed

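The data were Bru-seq libraries from mouse forebrain cultures, of which the authors deposited summaries and no values per library were used, so the depth of each library is unknown. The submitters' processing notes name TopHat2 2.1.0, Bowtie2 2.2.6, DESeq2 and the build mm9. No version of DESeq2 was given, and whether its log2 changes were moved toward 0 at low counts is not known from the labels. Changes of genes with low counts may therefore be understated. Per the labels, libraries were stranded and read from a single end over 50 bp. Per the file headers, the authors deposited FPKM as 1 pooled value and its bounds (scores on the FPKM scale) for each condition. Per the file headers, the mean normalized count is a size-scaled signal of the authors, averaged over libraries, and the log2 changes, standard errors, statistics and p-values are scores of the authors' 7 comparison tables, per the file headers. The vehicle knockdown table lists no gene names, so rows were matched through a unique mean count (20107 genes), and the log2 changes closed to within 1e-09.

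Interactions and means over arms came from the deposited log2 changes with summed variances, a two-sided Wald test and Benjamini-Hochberg adjustment over the 18241 genes whose mean reached 0.1 FPKM (Python 3.11.15, pandas 2.3.3, scipy 1.17.1). Intervals are 95%, and 0.05 was the threshold on the adjusted p. In tests on simulated data 88.5% to 100% of 200 genes changed by 2 on the log2 scale were recovered, with 8 to 13 false calls. The simulated noise was drawn from the same standard errors that the Wald test uses. These tests therefore check the computation only and cannot show whether those errors are right. A change of 2 also exceeds the family's largest interaction, 0.69 for Inhba under TTX, so power for the family's interactions was not measured. Knockdown columns of the FPKM table entered only the mean over conditions behind the FPKM filters, because the names go against the comparison tables.

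All 10 family members were examined in every comparison. From the pathway list the rule named the 3 largest rises and falls with a mean of at least 0.5 FPKM per drug, plus Smad2, Smad3, Smad4 and Smad7, and Furin, Pcsk5 and the adaptors were added to describe whole groups. Of the genes the rule names, 1 is counted in the list but not reported by itself here. Nearest genes were found for Inhba and for members called in at least 3 of the 4 drug responses. Members and lists were chosen with earlier results of these data known. RAI1 ChIP-seq (12 samples) was not analysed here.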

Additional observations from a re-analysis of the deposited data

Results flagged for a closer look

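The FPKM column whose name reads as knockdown with TTX lists Inhba at 74.5, against 2.28 in shCtrl TTX and 82.0 in shCtrl BIC. The columns whose names read as knockdown untreated and knockdown with BIC list 3.10 and 4.31. The authors' deposited table for shRai1 gives a rise of Inhba under BIC (4.61) and a fall under TTX (log2 change -0.56), which those names do not follow. Other members differ between the same columns: those named for TTX and for BIC list Inhbb at 4.15 and 9.07, Acvr2b at 1.02 and 2.90, and Fst at 2.48 and 1.55. The columns entered only the mean over the 6 conditions behind the FPKM filters, which does not depend on which knockdown column carries which treatment. Whether their names are exchanged was not tested, so they were not read as values of a treatment.

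The TTX response of Bmpr1b differed between the arms by 0.62 (SE 0.17, adjusted p 0.0390 by the Wald test with Benjamini-Hochberg adjustment). The authors' deposited tables give -0.51 (SE 0.13) in shCtrl and 0.10 (SE 0.11) in shRai1. In the same contrast 5 of 8 oligodendrocyte-lineage markers were called, all 5 with the higher response in shRai1, against 0.943% of all genes, and their part was not tested.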

How the results depend on the processing

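Across the counts of called genes, 54 alternative values stayed within 1.5 times the reported count and 5 did not. At a threshold of 0.01 the pathway genes called under TTX in shCtrl fell to 12 and in the vehicle knockdown to 0, and the family's calls under TTX in shRai1 to 0. Adjusting over all genes with a p-value left 1 family call there, with Acvr2b at an adjusted p of 0.0556, and 0 pathway calls in the vehicle knockdown. In that knockdown comparison the BMP receptors Bmpr2 and Bmpr1a had adjusted p-values of 0.0562 and 0.0797 in the authors' deposited table. Both would be called beside Bmp7 at a threshold of 0.1. Among called changes of the family in shCtrl, the log2 ratio of FPKM had the opposite sign for Acvr2b under TTX (-0.0748 and -0.0577 with pseudocounts of 0.1 and 1) and Acvr2a under BIC (0.0133 and 0.0124). Signs also differed for 4 uncalled changes under TTX (Fst, Fstl3, Acvr1c, Acvr2a) and 2 under BIC (Acvr1b, Acvr1c). Over all called genes the signs matched for 91.4% under TTX and 90.3% under BIC. The TTX mean of Inha became 0.0064 with inverse variance weights. Centring gave Fstl3 under BIC in shCtrl an adjusted p of 0.0517 and Inhbb under TTX in shRai1 one of 0.0458; restricting to a mean count of at least 50 gave Inhbb 0.0442. The causes were not tested. No paired analysis was possible because no values per library were used; leaving out each replicate was not run for the same reason. The counts of Fst (26.1) and Fstl3 (12.8) limit their precision.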
